A study of Mus musculus with 10 samples.

Results

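The promoters of 10 germ-cell and meiosis genes were examined in the spermatozoal methylation data. These were Dazl, Ddx4, Sycp1, Sycp3, Hormad1, Stk31, Brdt, Rec8, Dmc1 and Smc1b. A promoter was taken as the 1000 bp on either side of the gene start annotated by GENCODE, and all CpG sites within it with at least 10 reads in an animal, both strands summed, were used. The 10 windows held 189 CpG sites that reached this coverage in all 10 animals, out of 904364 such CpG sites in the whole data set. They lay in 8 promoters. Stk31 and Rec8 had 0 usable CpG sites in any animal.

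The study asked whether an inhibitor of DNA methylation acts on the male germ line of treated mice and of descendants that were never treated. Adult male C57Bl/6 mice of the P-generation were injected intraperitoneally 3 times per week for 7 weeks, starting at an age of 7 weeks, with vehicle (7.5% DMSO in phosphate buffered saline; animals C8 and C14) or with 0.1 µg per g bodyweight decitabine in this vehicle (animals D10, D11 and D13). Decitabine is a cytidine analogue that is built into DNA and traps DNA methyltransferases. The F3-generation consisted of untreated male descendants through the male line, F3C9 and F3C30 from vehicle-control animals and F3D1, F3D7 and F3D31 from decitabine treated animals, and F3D1 and F3D31 shared the ancestor D10. Sequencing used 1 library per animal, so that n is 2 or 3 animals per group, and in reduced representation bisulfite sequencing the fragments cut by MspI at CCGG are converted so that unmethylated cytosines read as thymine. The tissue is given by the methods of the study and not by the sample labels, and a share of methylated reads cannot tell a partly methylated site in every cell from full methylation in some of the cells.

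Promoters of this class are rich in CpG sites. In mice they gain DNA methylation around implantation, stay methylated in most somatic cells and lose it again in primordial germ cells, where the genes become active. In germ cells they are known as unmethylated. The 10 genes cover the main steps of male germ cell development: the RNA-binding protein Dazl and the RNA helicase Ddx4 (vasa), the synaptonemal complex proteins Sycp1 and Sycp3, the chromosome axis protein Hormad1, the meiotic cohesin subunits Rec8 and Smc1b, the recombinase Dmc1, the testis bromodomain protein Brdt and the testis Tudor-domain protein Stk31.

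The sequences before the start of Hormad1 and Sycp1 are shown because both were methylated at intermediate levels at every measured CpG site, and because the Sycp1 stretch holds the site with the largest difference of the F3-generation. They are taken from RefSeq for GRCm38 (mm10), run 5′ to 3′ in the direction of the gene and end before the first transcribed base. Capitals mark each CpG dinucleotide that 10 or more reads covered in every animal. The Hormad1 stretch is the plus strand of chr3:95559427-95559676 and the Sycp1 stretch the minus strand of chr3:102936101-102936350.
Hormad1: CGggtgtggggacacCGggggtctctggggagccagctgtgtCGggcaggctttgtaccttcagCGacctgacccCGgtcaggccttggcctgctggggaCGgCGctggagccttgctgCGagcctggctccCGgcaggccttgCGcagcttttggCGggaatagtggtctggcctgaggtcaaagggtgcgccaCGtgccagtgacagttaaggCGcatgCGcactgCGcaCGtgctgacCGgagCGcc
Sycp1: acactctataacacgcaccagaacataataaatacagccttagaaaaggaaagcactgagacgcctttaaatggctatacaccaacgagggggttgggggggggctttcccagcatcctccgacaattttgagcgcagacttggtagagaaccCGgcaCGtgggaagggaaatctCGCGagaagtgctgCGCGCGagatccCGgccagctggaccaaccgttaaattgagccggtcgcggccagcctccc
In the Hormad1 stretch, 18 of 19 CpG sites were measured, and their mean methylation over the 10 animals was 24.5%, with single sites from 15.9% to 34.4%. In the Sycp1 stretch it was 26.1% over 8 of 17 CpG sites, from 17.7% to 35.5%.

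RefSeq gave sequences from 250 bases before to 50 after the start for all 10 genes, with 2 each for Hormad1 and Stk31. All of them had more CpG sites than the median of 7 over the 32851 mouse promoter sequences, with between 15 in Sycp3 and 38 in Ddx4. The E-box CACGTG, a palindrome, was found in 6 of the 10 genes (Hormad1, Sycp1, Sycp3, Ddx4, Brdt and Stk31) and in 7.15% of all promoter sequences. The E2F-type motif GCGGGA, read on both strands (GCGGGA or TCCCGC), was found in 7 of the 10 genes (Hormad1, Sycp1, Sycp3, Ddx4, Rec8, Dmc1 and Smc1b) and in 19.98% of all promoter sequences. Both motifs contain a CpG, and the shares over all promoter sequences are not matched for the number of CpG sites. The counts are of genes and the shares are of sequences. In none of the 10 genes did the motifs share bases, and Dazl held neither. In the whole windows, 5 measured CpG sites lay inside a CACGTG. They were at 6.35% in Ddx4, at 15.9% and 16.3% in Hormad1 and at 22.7% and 23.4% in Sycp1, each below the mean of its promoter given below. The 2 measured CpG sites inside a GCGGGA were at 26.7% in Hormad1 and at 0% in Dazl.

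Coverage differed widely between the windows. The Dazl window (chr17:50292636-50294636, minus strand) holds 139 CpG sites and 17 CCGG sites in the reference, and 63 of its CpG sites were covered in all animals. The windows of Ddx4 (chr13:112651475-112653475), Sycp1 (chr3:102935100-102937100) and Hormad1 (chr3:95558677-95560677) gave 27, 25 and 22 CpG sites, those of Smc1b (chr15:85130964-85132964) and Sycp3 (chr10:88458569-88460569) gave 21 and 17, that of Dmc1 (chr15:79604109-79606109) gave 10 and that of Brdt (chr5:107330159-107332159) gave 4. Stk31 (chr6:49394604-49396604) has 67 CpG sites but only 2 CCGG sites in its window, and 8 reads fell on it over all animals. Rec8 (chr14:55617037-55619037) has 50 CpG sites and 4 CCGG sites, and it also received 8 reads. Nothing can be said about the methylation of Stk31 and Rec8 from these data. The median coverage per CpG site and animal was between 35 reads in Brdt and 77 reads in Sycp1, and the summed coverage of whole libraries was between 48903817 reads in D13 and 115158278 reads in F3D1. Reads carry no molecular identifiers, so confidence intervals cover counting error only.

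The measured promoters were neither fully methylated nor, for the most part, free of methylation. The methylation level of a promoter is given as the mean percentage over its shared CpG sites. Over the 10 animals it was 27.2% ± 11.005 (SD, n = 10) in Brdt, 25.6% ± 9.33 in Hormad1, 25.1% ± 11.5 in Sycp1, 22.6% ± 7.63 in Ddx4, 20.6% ± 6.91 in Sycp3, 11.5% ± 4.04 in Dazl, 9.49% ± 2.84 in Smc1b and 2.97% ± 1.27 in Dmc1. The first 5 lay within 1 SD of each other. Among all 13213 protein-coding promoters with at least 3 shared CpG sites, the median level was 1.01% and 88.6% lay below 5%, so that each of the 8 was above at least 85.0% of them, Brdt above 94.97%. The 4 shared CpG sites of Brdt all lay in an intron, 507 to 665 bp after the start. Its level therefore does not describe the sequence nearer the start. The CpG sites 43, 47 and 57 bp after the start reached 10 reads in 8 animals, but not in C8 and F3C9. Their means over these 8 animals were 33.6%, 31.5% and 27.3%. None of the 189 CpG sites reached a mean of 50%, the highest being 36.7%, and 45 had a mean below 5%.

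**Figure D1:**
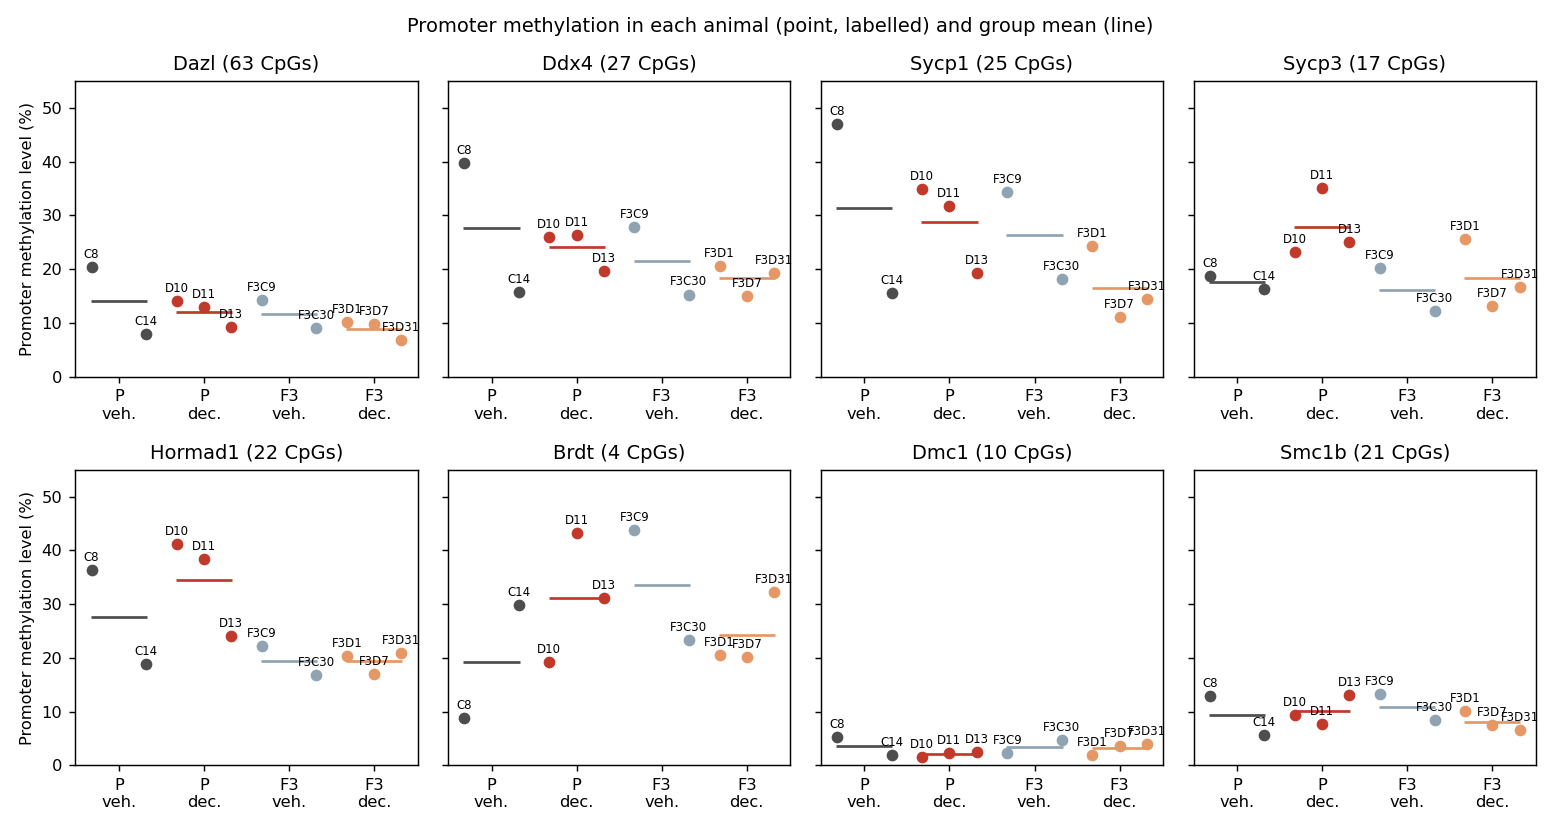
Methylation level (y axis, mean percentage over shared CpG sites) of 8 promoters in each animal, by group (x axis); points are single animals with their names and lines are group means. C8 is the highest animal in Dazl, Ddx4, Sycp1 and Dmc1, and Dmc1 is at most 5.20% in all 10 animals.

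The RNA regulators Dazl and Ddx4 had the same order of their vehicle-control animals. The level of Dazl, which binds messenger RNAs in germ cells, was 20.4% in C8 and 7.89% in C14, 14.01% in D10, 12.95% in D11 and 9.23% in D13. Among descendants, F3C9 had 14.3%, F3C30 9.13%, and the decitabine lineage 10.1% in F3D1, 9.83% in F3D7 and 6.76% in F3D31. C8 was the highest of all animals, and in both generations the decitabine group lay inside or overlapped the range of the vehicle group. For Ddx4, which acts in the piRNA pathway, the level was 39.7% in C8, 15.8% in C14, 26.0% in D10, 26.4% in D11 and 19.7% in D13. Among descendants, F3C9 had 27.8% and F3C30 15.3%, against 20.6% in F3D1, 15.1% in F3D7 and 19.3% in F3D31. All 3 decitabine treated animals lay between both vehicle-control animals.

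In the synaptonemal complex genes the spread was widest for Sycp1, the protein of the transverse filaments. Its level was 47.0% in C8, 15.6% in C14, 34.9% in D10, 31.8% in D11 and 19.4% in D13, and 34.4% in F3C9, 18.2% in F3C30, 24.3% in F3D1, 11.04% in F3D7 and 14.4% in F3D31. C8 and C14 thus differed more from each other than any group mean differed from another. Sycp3, a protein of the lateral elements, had a different order, with 18.8% in C8, 16.3% in C14, 23.2% in D10, 35.2% in D11 and 25.1% in D13. It was the single promoter of the 8 in which the decitabine and vehicle groups of the P-generation did not overlap, whereas 20.5% of all 13213 promoters had groups that did not overlap, 5.98% with decitabine higher. The group means were 27.8% ± 6.41 (SD, n = 3) with decitabine and 17.5% ± 1.74 (n = 2) with vehicle. In the F3-generation Sycp3 was at 20.2% in F3C9, 12.2% in F3C30, 25.6% in F3D1, 13.1% in F3D7 and 16.6% in F3D31, with overlapping groups, whereas 18% of all promoters had groups apart in that generation. The Sycp3 window also overlaps the gene Chpt1.

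Hormad1, which marks unsynapsed chromosome axes, had 36.3% in C8, 18.9% in C14, 41.2% in D10, 38.4% in D11 and 24.1% in D13. All 5 animals of the F3-generation were lower than every P-generation animal except C14, with 22.2% in F3C9, 16.8% in F3C30, 20.3% in F3D1, 17.0% in F3D7 and 20.9% in F3D31. Brdt, needed for chromatin compaction in spermatids, was measured with 62 to 208 reads per animal over 4 CpG sites and ranged from 8.75% in C8 to 43.8% in F3C9. In Smc1b, a meiotic cohesin subunit, the lowest level was 5.71% in C14 and the highest 13.4% in F3C9. In Dmc1, the meiotic strand-exchange recombinase, levels ran from 1.47% in D10 to 5.20% in C8.

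Mean methylation differed by position within the promoter in Dazl and Smc1b. In Dazl, 7 CpG sites upstream of the start had a mean of 23.0%, and 30 CpG sites in the first 500 bp after it 17.8%. The 26 CpG sites from 500 to 1000 bp had 1.08%, with 17 of them in introns and 9 in annotated untranslated exon sequence. Single sites of Dazl overlapped, from 2.51% to 27.5% in the first 500 bp and from 0% to 7.55% beyond. In Smc1b the direction was opposite, with 1.65% in 11 CpG sites upstream of the start and 18.1% in 10 CpG sites in the 500 bp after it, 1 of them in a coding exon and 9 in an intron. The upstream sites of Smc1b lie in the gene Ribc2, which starts in the opposite direction. Sycp1 had 34.3% at its single CpG site more than 500 bp before the start, 26.1% over 8 in the 500 bp before it, 23.4% over 10 in the 500 bp after it and 24.97% over 6 beyond. The measured CpG sites of Dmc1 all lay in the 5′ untranslated region and 7 of 10 had a mean below 5%. In bins of 250 bp over all 8 promoters, the mean was between 18.2% and 23.2% from 750 bp before to 500 bp after the start and then fell to 11.1% and 0.86%, but the last bin held 11 CpG sites of Dazl alone, and the bins before -250 bp held 5 and 7 CpG sites.

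**Figure D2:**
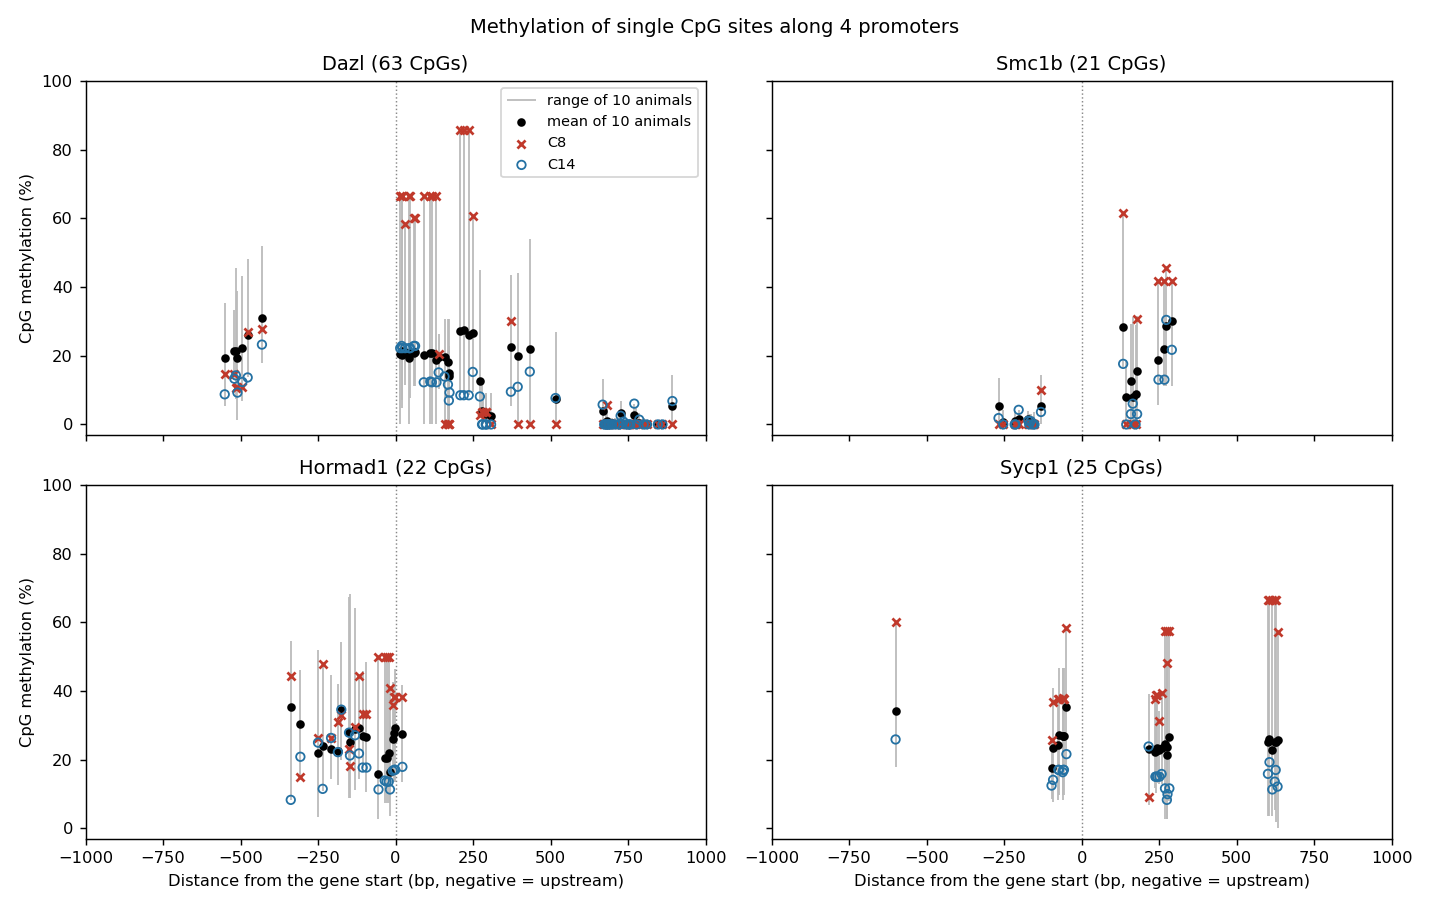
Methylation percentage of single CpG sites (y axis) by distance from the gene start in bp (x axis) in 4 promoters; black points are means of 10 animals, grey lines their range, crosses C8 and open circles C14. Dazl falls to a mean of 1.08% beyond 500 bp, Smc1b is at 1.65% upstream of its start, and C8 reaches 85.7% at 3 neighbouring CpG sites of Dazl.

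CpG sites of one MspI fragment are read by the same reads and are not independent. The 189 CpG sites fell into 50 MspI fragments, counting a site in a CCGG with the fragment that it opens in the plus-strand direction, although reads of both adjoining fragments can cover it. On fragments of the same promoter the order of the animals changed. In Dazl, C8 had 61.0% on the fragment from 17 to 140 bp after the start (12 CpG sites, 10 to 39 reads each in C8), where the other 9 animals had between 7.30% and 19.97%. On the fragment from 396 to 517 bp, C8 had 0% and F3C9 29.6%, and the 27 reads in C8 at the CpG site 433 bp after the start allow a level of up to 11.1%. At 236, 220 and 209 bp after the start, C8 had 85.7% at each CpG site, from 14 reads. On the Sycp1 fragment from 598 to 633 bp, C8 had 65.1% and F3C30 3.67%. On the Hormad1 fragment from -175 to -119 bp, D11 had 63.6% and F3D7 13.3%. Of the 39 fragments with a mean of at least 10%, C8 was highest on 13, D11 on 12, D10 and F3C9 on 6 each, and C14, F3C30, F3D7 and F3D31 on 0. C8 was at the same time lowest on 6 of these fragments.

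**Figure D3:**
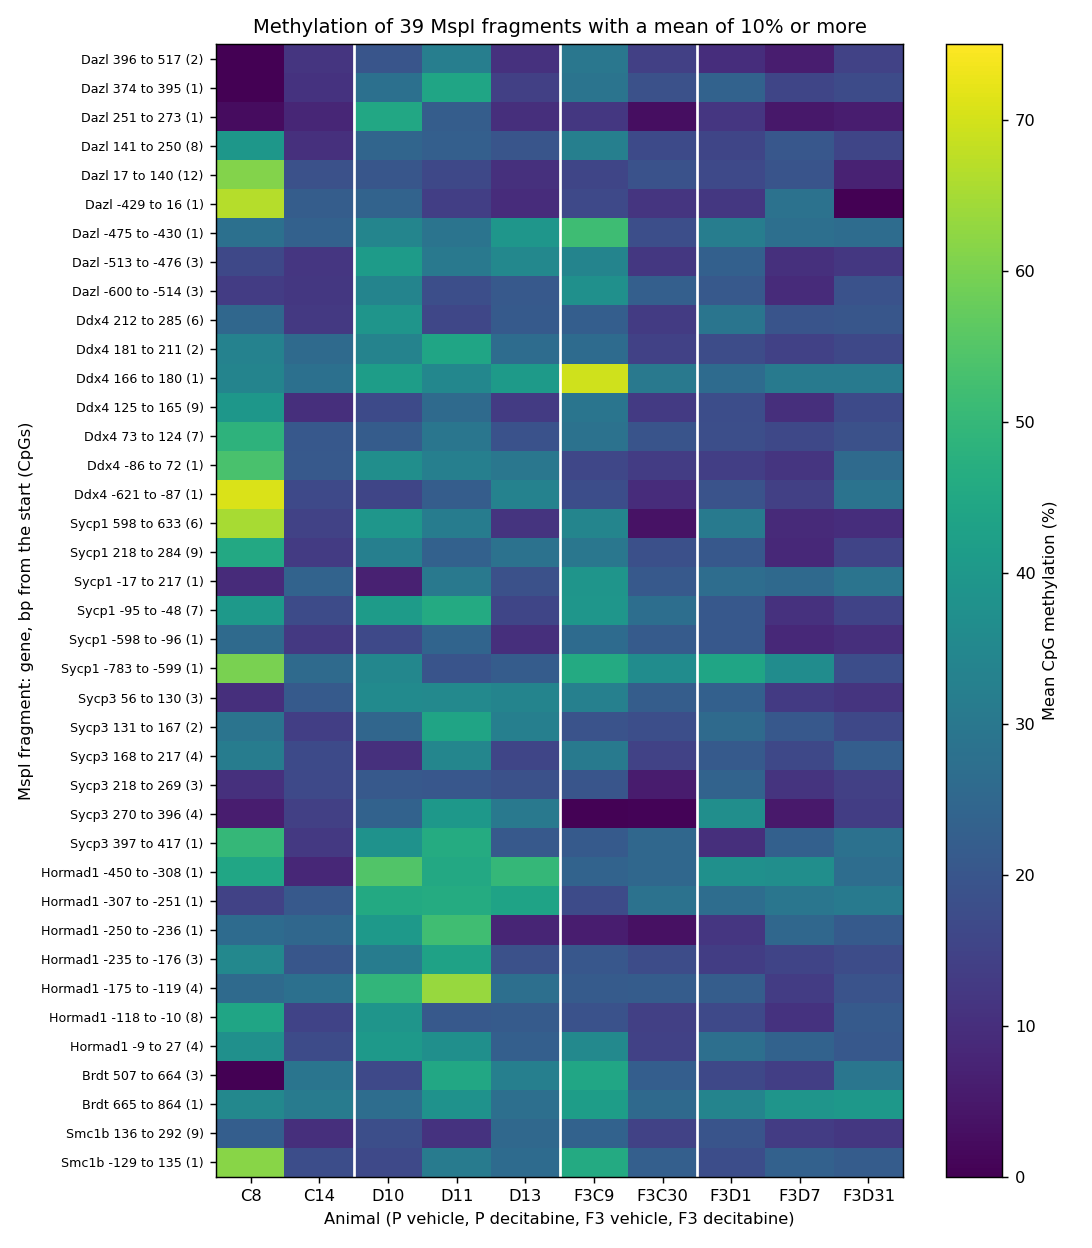
Mean CpG methylation (colour, percent) of the 39 MspI fragments with a mean of at least 10% (rows, with distance from the gene start and number of CpG sites) in the 10 animals (columns, groups separated by white lines). C8 is highest on 13 and lowest on 6 of the 39 fragments.

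The spread between animals of one group was larger than counting error. Over member CpG sites with a pooled level of 5 to 40%, the variance between animals of a group was 4.57 times that of binomial counting in the P-generation (median of 135 CpG sites) and 2.15 times in the F3-generation (170 CpG sites). Over all CpG sites of this range in the data set the ratios were 3.01 and 2.21. Sycp1 had the highest ratio of the promoters with more than 4 such CpG sites, 9.66 in the P-generation and 3.55 in the F3-generation, and Smc1b had 1.24 and 1.8003. Tests that treat reads as the unit therefore give p-values that are too small here.

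Several promoters shared their highest animal. C8 was the highest of the 10 animals in 4 of the 8 promoters (Dazl, Ddx4, Sycp1 and Dmc1). The same held for 22.2% of all promoters tested and 36% of the 977 promoters with a mean level of 5 to 40%. That range leaves out Dmc1, with a mean of 2.97%. From pooled reads, C8 stayed highest in Ddx4 and Sycp1 but not in Dazl and Dmc1. Dazl was then at 11.5% in D10 and 9.71% in C8, and Dmc1 at 4.09% in F3C30 and 3.63% in C8. The mean over the 8 promoters was highest in D11 with 24.7%, followed by C8 with 23.6%, F3C9 with 22.3%, D10 with 21.2%, D13 with 18.0%, F3D1 with 16.7%, F3D31 with 15.1%, C14 with 13.98%, F3C30 with 13.5% and F3D7 with 12.2%. By group it was 18.8% ± 6.83 (SD, n = 2) in vehicle-control animals and 21.3% ± 3.34 (n = 3) in decitabine treated animals, and 17.9% ± 6.22 (n = 2) and 14.6% ± 2.30 (n = 3) in the corresponding F3 groups. Neither difference was larger than the spread of the vehicle-control animals. Without C8, the vehicle value of the P-generation was that of C14 alone.

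Other germ-cell genes were also higher in C8 than in C14. Of 32 other germ-cell and meiosis genes, 20 had a shared CpG site. They fell into 10 with a mean level of at least 10%, among them Sycp2 with 32.3%, Meioc with 32.2% from 2 CpG sites and Sohlh1 with 30.1%, and 10 below 5%, among them Syce2, Meiob, Stag3, Prdm9 and Hfm1, all between 1.16% and 2.51%. In 7 of the 10 more methylated genes C8 was the highest animal. The list mean was 24.3% in C8, 9.27% in C14, 16.6% in D10, 16.5% in D11, 13.2% in D13, 14.9% in F3C9, 8.58% in F3C30, 12.2% in F3D1, 8.11% in F3D7 and 12.4% in F3D31.

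Promoters of maternally methylated imprinted genes, which carry methylation on 1 parental allele in somatic tissue and are unmethylated in sperm, serve here as markers of other cells. Of 10 such genes, 8 had a shared CpG site, and Mest and Snrpn had none. Their mean was 14.6% in C8 and 5.73% in C14, 8.10% to 14.7% in decitabine treated animals, 11.9% in F3C9 and 7.15% in F3C30, and 8.59% to 9.42% in decitabine descendants. Peg3 (36.9% in C8, 5.11% in C14) and Peg10 (25.5% and 3.52%) had the widest spread. Impact stayed below 5% in all animals, and Kcnq1ot1 was at 0% in C8. Promoters of 10 housekeeping genes had a median between 0.47% and 1.16% in every animal, with Ywhaz and Eef1a1, each read at 2 or 3 CpG sites, as the exceptions at 95.2% and 40.7%. The marker levels moved with the levels of the germ-cell and meiosis genes, and their part in the results was not tested.

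**Figure D4:**
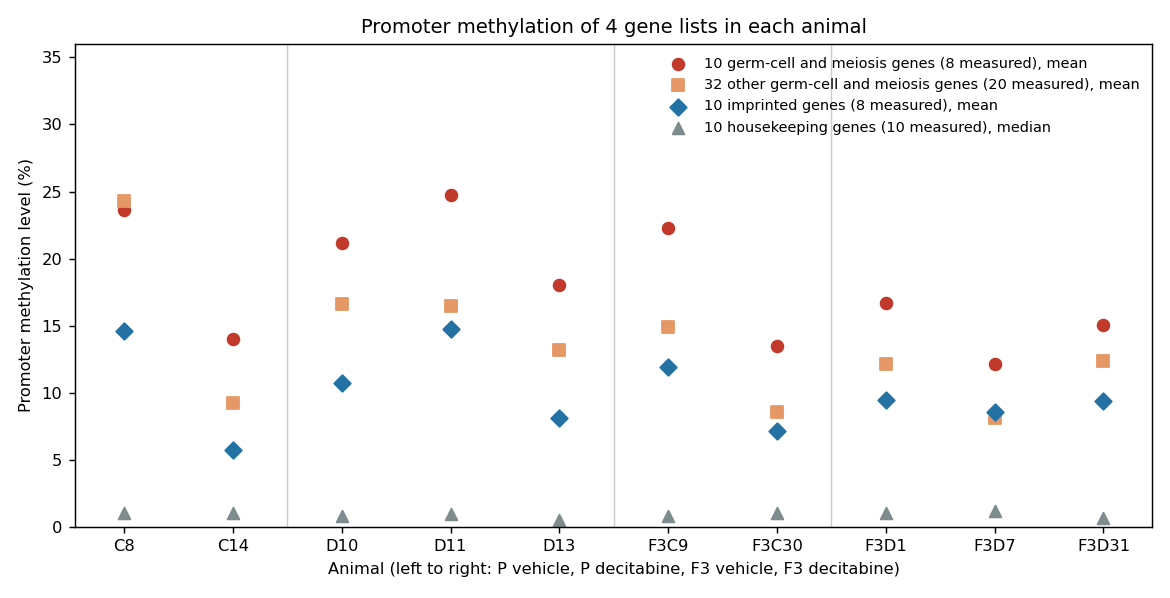
Promoter methylation level (y axis, percent) of 4 gene lists in the 10 animals (x axis); each symbol is the mean of a list, or the median for housekeeping genes. The germ-cell and meiosis genes and the imprinted genes are lower in C14 than in C8, and the housekeeping median is at most 1.16% in every animal.

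By Pearson's r of the log2 methylation ratio over the 10 animals, given as a description since the libraries are shared, the promoters most like the mean of the 8 were those of Dmrtb1 (0.952), Cpt1b (0.952), Naa11 (0.9504), Pou5f2 (0.947) and Gm14139 (0.939), with mean levels between 19.8% and 34.9%. Of all promoters, 1.03% had an r above 0.8 and the median r was -0.18. Each of the 8 was also set against the mean of the other 7. The r was between 0.65 and 0.79 for Dazl, Ddx4, Sycp1, Sycp3 and Hormad1, 0.38 for Smc1b, -0.06 for Brdt and -0.34 for Dmc1.

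Decitabine and vehicle-control animals were compared for each promoter with limma on the log2 ratio of methylated to unmethylated reads, summed over the shared CpG sites with 1 added to both, over all 13213 promoters. In the P-generation 0 of the 8 promoters and 0% of all promoters passed an adjusted p-value of 0.05, with 0 of 8 and 7.73% of all promoters below an unadjusted p of 0.05. The median difference over all promoters was -0.17, and 6 of the 8 had a positive difference. The largest were Brdt with 0.83 ± 0.63 (SE, adjusted p = 0.737) and Sycp3 with 0.81 ± 0.49 (adjusted p = 0.679, 95% interval from -0.26 to 1.88). Hormad1 was at 0.61, Smc1b at 0.57, Dazl at 0.43, Sycp1 at 0.10, Dmc1 at -0.21 and Ddx4 at -0.34. The intervals of all 8 included 0, and that of Sycp1 reached from -1.33 to 1.54. The groups of both generations were fitted together with a common spread per promoter. The intervals of a promoter are therefore equally wide in both generations. Member CpG sites of 5 to 40% varied more between animals in the P-generation, at 4.57 against 2.15 times the counting variance.

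These differences rested on C8 and C14. Without C8, so that C14 stood alone and was assumed to vary like the other groups, all 8 differences were positive, with Sycp1 at 1.06, Ddx4 at 0.83, Dmc1 at 0.52 and Brdt at 0.05, and 0 of 8 passed. Without C14, Sycp1 was at -0.88, Ddx4 at -1.29 and Dmc1 at -0.95, again with 0 of 8 past the threshold, while 339 of all promoters then passed it in place of 0. On the scale of mean percentages, Sycp1 and Dazl were lower in decitabine treated than in vehicle-control animals, by -2.63 and -2.09 percentage points, although their log2 ratios were higher.

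In the F3-generation 0 of the 8 promoters and 0% of all promoters passed, with 0 of 8 and 2.85% below an unadjusted p of 0.05. The median difference over all promoters was 0.06, and 6 of the 8 had a negative difference. Sycp1 was at -0.93 ± 0.66 (SE, limma adjusted p = 0.999) with a 95% interval from -2.36 to 0.51, Brdt at -0.50, Dazl at -0.49, Smc1b at -0.41, Ddx4 at -0.39 and Hormad1 at -0.02, and Sycp3 and Dmc1 at 0.05 and 0.17. Without F3C9, Sycp1 was at -0.38, Ddx4 at 0.10, Brdt at 0.15 and Hormad1 at 0.17.

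**Figure D5:**
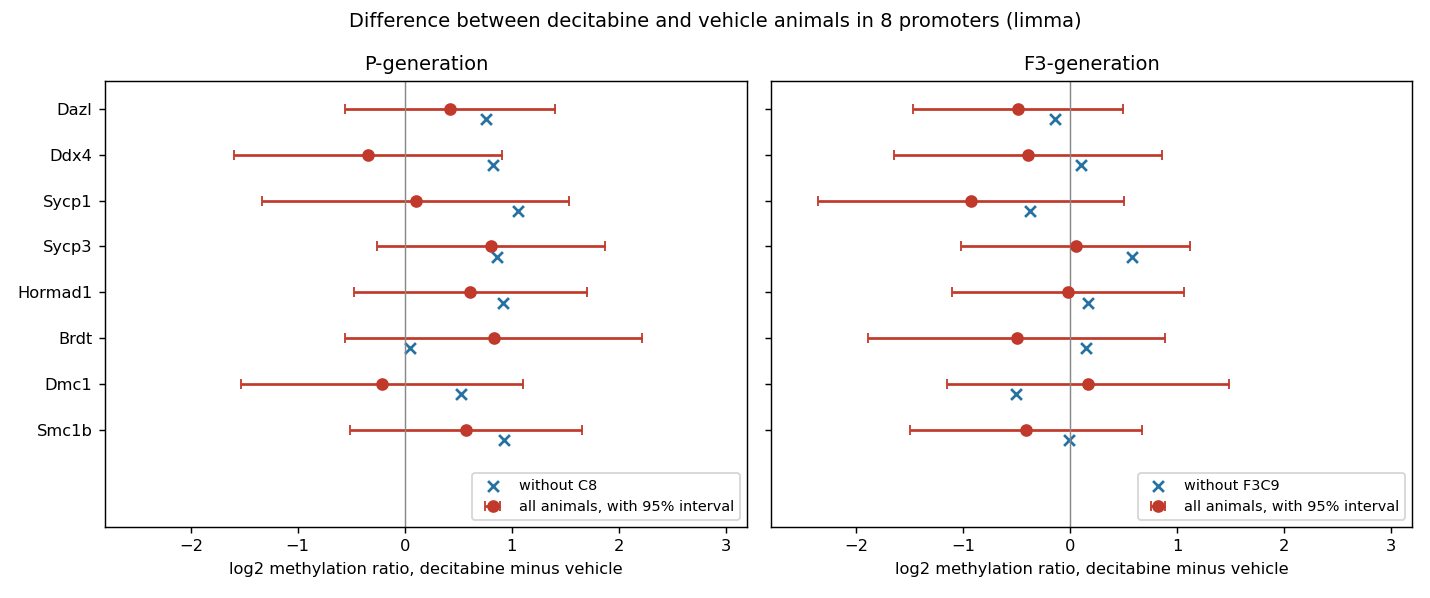
Difference in the log2 methylation ratio between decitabine and vehicle animals (x axis) for 8 promoters (y axis) in the P-generation and the F3-generation, with 95% intervals from limma; crosses give the value without C8 or without F3C9. All 16 intervals include 0, and Sycp1 moves from 0.10 to 1.06 when C8 is left out.

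The change of the difference between generations was tested as an interaction, and 0 of 8 promoters passed (0% of all promoters; 5.53% of all promoters and 0 of 8 below an unadjusted p of 0.05). Its size was between -1.33 ± 0.90 in Brdt and 0.38 ± 0.85 in Dmc1. Between the generations, with both treatment groups weighted equally, 0 of 8 passed as well, against 0% of all promoters. Hormad1 had an F3 minus P difference of -0.88 ± 0.35 (limma adjusted p = 0.818) and was the single promoter of the 8 below 0.05 unadjusted, where 5.63% of all promoters were and the median over all promoters was 0.12. With each P animal and its descendants as a block, where D13 has no descendant and adds nothing, the Hormad1 difference was -1.09 ± 0.32 (limma adjusted p = 0.682) and 0 of 8 and 0 of all promoters passed. Set beside their ancestors, F3D7 was lower than D11 in 7 of 8 promoters, with a median of -16.0 percentage points. F3D31 was lower than D10 in 6, F3C9 lower than C8 in 5, and F3D1 lower than D10 and F3C30 lower than C14 in 4 each. No share over all promoters is given beside these counts, and they were not tested. D11 had the highest mean over the 8 promoters of all animals (24.7%) and F3D7 the lowest (12.2%).

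Single CpG sites were compared by a likelihood ratio test on their methylated and unmethylated read counts, fitted to every CpG site of a generation. A site was called when the pooled shares differed by 25 percentage points or more and the Benjamini-Hochberg q was below 0.01. In the P-generation 3 of 189 member CpG sites (1.59%) were called, all with higher methylation in decitabine treated animals, against 0.705% of all 934227 CpG sites in either direction and 0.337% in this one. The likelihood ratio p was below 0.05 at 32.3% of the member CpG sites and at 17.2% of all. Of the 189 member CpG sites of the P-generation, 135 had a pooled level of 5 to 40%, against 98361 of all 934227. Shares at CpG sites of like level were not computed, here or below, so the part of the level in these shares was not tested. In the F3-generation 0 of 230 member CpG sites were called, against 0.237% of 1054272 in either direction and 0.159% with decitabine higher, with 24.8% and 16.1% below a p of 0.05. At a threshold of 10 percentage points, the P-generation had 18 called member sites (against 2.13% of all CpG sites) and the F3-generation 9 (0.953%). By promoter, the pooled difference of the P-generation was positive at 14 of 17 CpG sites in Sycp3 (median 13.1 percentage points), 17 of 22 in Hormad1 (10.1) and 19 of 25 in Sycp1 (2.54), and negative at 21 of 27 in Ddx4 (-5.91). In the F3-generation it was negative at 21 of 28 CpG sites in Sycp1 (-7.18) and 26 of 35 in Ddx4 (-3.48). These signs come from pooled reads, so that animals with more reads weigh more. With animals weighted equally, the P difference of the Sycp1 promoter was -2.63 percentage points. On its fragment from 598 to 633 bp it was -12.6, although the pooled difference was positive at each CpG site there. The Sycp3, Hormad1 and Ddx4 promoters kept their direction. CpG sites of the same fragment also share reads, and no share over all CpG sites is given beside these counts.

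The called CpG site of Sycp3 lies 56 bp after the start in the 5′ untranslated region (chr10:88459625-88459626). Methylation was 0% of 54 reads in C8 (95% Wilson interval 0% to 6.64%) and 25% of 64 reads in C14, but 53.7% in D10, 40.9% in D11 and 30.2% in D13, a pooled difference of 29.1 percentage points (q = 2.94e-05). The groups did not overlap, as at 30 of the 189 member CpG sites (15.9%) and 8.41% of all CpG sites, and the call was lost without C8 (17.7 percentage points) and without D10 (21.5 percentage points). In the F3-generation the site was at 27.0% in F3C9, 34.2% in F3C30, 31.3% in F3D1, 23.3% in F3D7 and 22.4% in F3D31.

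Both other called CpG sites lie upstream of Hormad1. At -307 bp (chr3:95559370-95559371) methylation was 14.9% in C8, 20.9% in C14, 45.5% in D10, 46.0% in D11 and 43.6% in D13, with 39 to 91 reads per animal, a difference of 26.9 percentage points (q = 4.06e-05). Here both vehicle-control animals were low, and the lower Wilson bounds of D10 and D11 (34.8% and 34.3%) lay above the upper bounds of C8 and C14 (25.3% and 30.3%), while D13 reached down to 29.3%. These bounds cover counting error only and come from the reads that gave the call, so they are not a separate test. Without C8 the difference was 24.4 percentage points (q = 0.0116) and just missed both thresholds. The F3-generation was at 17.1% in F3C9, 28.4% in F3C30, 26.9% in F3D1, 29.4% in F3D7 and 30.8% in F3D31. At -338 bp (chr3:95559339-95559340) C8 had 44.4%, C14 8.33%, D10 54.5%, D11 45.2% and D13 50%, a difference of 30.1 percentage points (q = 0.00783). With animals weighted equally, the difference at this site was 23.5 percentage points, under the 25-point threshold. The pooled difference was 6.05 percentage points without C14, and the call was also lost without D10, D11 or D13 and with Fisher's exact test, where q was between 0.0102 and 0.0474. With a term for the variation between animals in the model, 0 of the 189 CpG sites and 0 of all 934227 were called, with 7 of the 189 (3.70%) and 1.12% of all below an unadjusted p of 0.05. Limma on single CpG sites also called 0 of both, with 17 of the 189 and 5.59% of all below 0.05.

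The largest difference of the F3-generation was at the Sycp1 CpG site 49 bp before the start (chr3:102936148-102936149), which is part of the sequence shown above. It had 49.5% in F3C9 and 37.9% in F3C30, 19.0% in F3D1, 20.6% in F3D7 and 17.9% in F3D31, a difference of -24.6 percentage points (q = 8.68e-06) that stayed under the 25-point threshold. Without F3C30 it was -30.5 and without F3D7 -25 percentage points, past both thresholds, and without F3C9 it was -18.9 percentage points (q = 0.0392). The groups did not overlap, as at 35 of the 230 member CpG sites (15.2%) and 9.71% of all CpG sites. In the P-generation the same site was at 58.4% in C8, 21.6% in C14, 50% in D10, 54.5% in D11 and 25% in D13. The next in size were the Dazl CpG site 433 bp after the start with -19.9 percentage points (q = 0.0242) and the Ddx4 CpG site 262 bp after the start with 19.2 percentage points (q = 0.0803). Without F3C30 they were -39.5 and 27.7 percentage points and passed both thresholds, and without F3C9 they were -5.40 and 10.3 percentage points.

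The CpG site with the highest mean in each promoter, over the 10 animals, was at 36.7% in Ddx4 (179 bp after the start, 69.6% in F3C9 and at most 41.7% elsewhere), 35.5% in Sycp1 (the site at -49 bp), 35.3% in Hormad1 (the site at -338 bp), 33.9% in Brdt (665 bp after the start), 30.9% in Dazl (-431 bp), 30.1% in Smc1b (291 bp after the start), 28.8% in Sycp3 (the called site) and 10.1% in Dmc1 (82 bp after the start, 40.9% in C8). The 69.6% in F3C9 was the highest value of these 8 sites in any animal, from 23 reads.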

How the data were processed

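Per the labels and the study's methods, MspI-cut and size-selected spermatozoal DNA of 10 mice was sequenced after bisulfite conversion. The submitters' processing notes name CASAVA 1.8.2, Trim Galore 0.3.3, cutadapt 1.1, Bismark 0.10.1 and mm10. The deposited counts of methylated and unmethylated reads per CpG cytosine, strands separate, were not normalized or filtered by the authors. Strands were summed, CpG sites with at least 10 reads kept, and windows of 1000 bp drawn around GENCODE vM21 gene starts. CpG sites were tested over the whole table by likelihood ratio of a logistic model, and promoters with limma 3.58.1 (R 4.3.3) on log2 ratios with a pseudocount of 1, with Benjamini-Hochberg adjustment. Levels are means over CpG sites covered in all 10 animals. Intervals of shares are 95% Wilson intervals, and the limit for a count of 0 is 3 reads. Scripts (Python 3.11.15, numpy 2.4.6, scipy 1.17.1) were tested on simulated data. The simulated CpG counts held no variation between animals, so they cannot show how often the likelihood ratio test calls falsely here. Described in full were the 10 genes, every called CpG site, the CpG site with the highest mean of each promoter, the 3 largest differences of each generation, and the 3 highest of the other germ-cell genes. The members and lists were chosen with earlier results of these data known. Alternatives were other coverage minimums, windows, gene starts, scales and tests, leaving out each animal and, added after seeing the data, a lineage block. Separate animals are the replicates, but 2 F3 animals share an ancestor.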

Additional observations from a re-analysis of the deposited data

Results flagged for a closer look

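1 of the 189 shared CpG sites had every decitabine treated animal of the P-generation above its vehicle-control animals and every decitabine descendant of the F3-generation below theirs, and the difference between the generations was not tested at this site. Groups apart in opposite directions in both generations were found at 0.811% of all 904364 shared CpG sites, against 0.529% of the 189. It lies 520 bp upstream of Dazl, with 14.7% in C8 and 13.3% in C14 against 29.0%, 16.7% and 23.5% in D10, D11 and D13, and with 33.3% in F3C9 and 28.3% in F3C30 against 21.4%, 15.4% and 19.0% in F3D1, F3D7 and F3D31. The pooled differences were 9.77 percentage points in the P-generation (q = 0.402) and -11.7 percentage points in the F3-generation (q = 0.298), neither of which was called. Groups of 2 and 3 animals are too small for a search for single outlying animals.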

How the results depend on the processing

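The count of 3 called CpG sites in the P-generation was 0 with a term for variation between animals and with limma on single CpG sites, 18 at a difference of 10 percentage points, and between 4 and 33 when 1 animal was left out. The 33 without C14 held 8 sites higher and 25 lower with decitabine, and 4.43% of all CpG sites were then called in place of 0.705%. It was 5 without D10 (0.808% of all), 6 without D11 (0.628%) and 7 without D13 (0.876%), and of these 1 site, without D10, was lower. The count of 0 in the F3-generation was 9 at a difference of 10 percentage points and between 0 and 9 when 1 animal was left out, with 9 without F3C30 (1 higher and 8 lower, and 1.33% of all CpG sites) and 3 without F3D7 (0.242% of all). Other coverage minimums, windows, gene starts, an upper coverage limit and Fisher's exact test gave between 2 and 3 calls in the P-generation and 0 in the F3-generation. In all 4 promoter comparisons the count of called members was 0 under every alternative. Over all promoters, leaving out C14 raised the count of calls from 0 to 339 in the P-generation, 21 for the interaction and 222 between generations. Of 330 promoter differences recomputed, 313 kept their direction. Many of these could hardly reverse. Leaving out an animal of the other generation alters a difference only through which CpG sites are shared. The minimum of CpG sites per promoter and the model of the spread do not alter it. The 313 is therefore not a measure of stability. On the percent scale the P difference of Dazl was -2.09, that of Sycp1 -2.63 and the F3 difference of Dmc1 -0.30 percentage points, and with at least 20 reads the P difference of Dmc1 was 0.54. Leaving out 1 animal reversed 13 further directions. The ranges were -1.29 to 0.83 for Ddx4, -0.88 to 1.06 for Sycp1 and -0.95 to 0.52 for Dmc1 in the P-generation, and -0.89 to 0.10 for Ddx4, -0.47 to 0.58 for Sycp3, -0.21 to 0.17 for Hormad1, -1.15 to 0.15 for Brdt and -0.51 to 0.85 for Dmc1 in the F3-generation. Under the alternatives that kept all animals, group means over the 8 promoters moved by less than 1 SD. Leaving out an animal cannot move a mean by that much, so nothing is read from it. Of the member levels under the same alternatives, 3 moved further: Dazl was at 18.6% in a window of 500 bp, and Smc1b at 1.65% with at least 20 reads and at 5.25% from pooled reads, as fewer or other CpG sites carry the mean. The causes of the other changes were not tested. Decitabine and vehicle-control animals could not be paired because the labels give the groups no shared replicate numbers. A block for lineage, from the pedigree and added after seeing the data, left the counts of called members for the generations and their interaction at 0, with 3 residual degrees of freedom. With 2 vehicle-control animals per generation, the intervals given for the promoter differences set what could be seen.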
